A study of Mus musculus with 18 samples.

Results

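The clustered histone genes encode the bulk of the histone proteins and were examined here in bone marrow-derived macrophages (BMDMs) with and without the histone deacetylase HDAC3. Their gene symbols begin with Hist1h, Hist2h, Hist3h or Hist4h. Of 65 such genes without pseudogenes, the 46 with 10 or more counts in at least 3 of the 18 libraries were taken, out of 49315 genes in the files. They comprise 4 genes of the linker histone H1, 12 of H2A, 9 of H2B, 8 of H3 and 13 of H4. The count of each gene therefore chose the members, and their abundance is given as a description only. Of the 46 genes, 13 reached 10 counts in all 18 libraries. Hist2h2ab, with 10 or more counts in 3 libraries and at most 18, lay just inside the limit. Hist1h1b, Hist1h2af, Hist1h2bk and Hist1h2bl reached 10 counts in 2 libraries and lay just outside, with highest counts of 14, 47, 19 and 13. All 46 genes reached the limit within the 9 libraries labelled WT, and 37 did so within the libraries labelled HDAC3 KO, so a gene lower in the KO libraries could enter through the WT libraries alone.

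Each of 6 groups held 3 biological replicates. BMDMs were grown from femoral bone marrow in medium conditioned by L929 cells. The genotype is labelled WT, which the study calls HDAC3 f/f, or HDAC3 KO, which it calls M-HDAC3-/-. The latter carries a loxP-flanked exon of Hdac3 and a Cre recombinase driven from Lyz2, a gene of myeloid cells, so deletion depends on Cre activity in each cell. Cells of both genotypes received no treatment or 1 of 2 kinds of K562 cells, a human leukemia line. The K562 cells were left on for 45 min and washed off, and RNA was taken 5 h later. Apoptotic cells (ACs) had been given UVB for 15 min and rested for 2 h. Non-apoptotic cells (NACs) had not. The ages of the mice that gave bone marrow are not given in the sources used here. The p-values weigh a difference between groups against the spread between replicates, of which each group had 3.

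Histone genes of this family are copied in large numbers when a cell replicates its DNA, and most sit side by side in a few clusters. Their mRNAs are unusual in that most end in a conserved stem-loop, bound by the stem-loop binding protein SLBP, instead of a poly(A) tail. A pair each of H2A, H2B, H3 and H4 forms the nucleosome core, and H1 binds the linker DNA between cores. Some family members also produce polyadenylated transcripts in cells that have stopped dividing, and separate genes such as H3f3b and H2afz supply histones outside replication.

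The 46 genes lay in 4 places of GRCm38. Chromosome 13 held 38 of them, chr13:21716422-23764358, chromosome 3 held 5, chr3:96219865-96263311, chromosome 11 held 2, chr11:58948920-58956830, and Hist4h4 stood alone at chr6:136801553-136804415. A 16-base stem-loop was found in a GENCODE M21 transcript of 35 of the 46 genes, against 0.102% of 141767 transcripts of the annotation. The search pattern was the histone stem-loop as a whole, on the transcript strand. The loops are shown because H4 differs in them from the other types: 12 of 13 H4 genes carried versions found in no gene of the other types. Capitals mark the stem-loop, with up to 5 bases on either side, in the part of the transcript after the coding sequence.
Hist1h4h: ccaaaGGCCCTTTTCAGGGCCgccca
Hist1h4d: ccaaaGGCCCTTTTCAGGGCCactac
Hist2h4: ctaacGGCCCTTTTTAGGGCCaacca
Hist1h4a: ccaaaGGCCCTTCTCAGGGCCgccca
Hist1h4b: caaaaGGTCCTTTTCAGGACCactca
Hist1h2ao: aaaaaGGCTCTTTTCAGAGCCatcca
Hist1h3e: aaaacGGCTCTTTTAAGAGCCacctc
Hist1h1c: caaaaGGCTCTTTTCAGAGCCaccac
Hist3h2a: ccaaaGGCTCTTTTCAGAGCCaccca
The loop of Hist1h4h lies at chr13:23531458-23531473 on the plus strand, that of Hist1h2ao at chr13:21810898-21810913 on the plus strand, and that of Hist1h1c at chr13:23739512-23739527 on the plus strand. The commonest H4 version, the one of Hist1h4h, was present in 7 of the 13 H4 genes. The version of Hist1h1c was present in 3 of 4 H1, 7 of 12 H2A, 5 of 9 H2B and 3 of 8 H3 genes. No loop was found in Hist1h4k, Hist1h2bc, Hist2h2be and 8 other genes. A poly(A) signal, AATAAA or ATTAAA on the transcript strand, stood within the last 40 bases of a transcript in 12 of the 46 genes, against 48.7% of 58797 protein-coding transcripts. Hist1h1c, Hist3h2a and Hist2h2be were among the 12, and so were the H4 genes Hist1h4a, Hist1h4h, Hist1h4i, Hist1h4j, Hist2h4 and Hist4h4.

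The promoters were searched for letters found in many histone promoters. RefSeq windows of 300 bases were matched for 40 of the 46 genes, on GRCm38.p6. The letters CCAAT, searched on both strands, were in 3 of 12 H4 windows and in all windows of the other types, 4 of H1, 11 of H2A, 7 of H2B and 6 of H3, against 37.4% of 32851 windows in the table. TATAAA, searched likewise, was in 8 of 12 H4, 3 of 4 H1, 7 of 11 H2A, 5 of 7 H2B and 3 of 6 H3 windows, against 13.6% of all windows. Some neighbouring H2A and H2B genes on opposite strands, such as Hist1h2bg and Hist1h2ae, share part of their windows. A window is shown for one H4 and one H2A gene that fell in the comparison with ACs below, with these letters on either strand in capitals.
Hist1h4m: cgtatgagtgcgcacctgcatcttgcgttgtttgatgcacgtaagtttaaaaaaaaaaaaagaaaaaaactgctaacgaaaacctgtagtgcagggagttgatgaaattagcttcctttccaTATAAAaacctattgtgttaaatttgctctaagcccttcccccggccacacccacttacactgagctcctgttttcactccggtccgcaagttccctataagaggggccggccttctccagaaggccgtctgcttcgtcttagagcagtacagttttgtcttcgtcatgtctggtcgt
Hist1h2ao: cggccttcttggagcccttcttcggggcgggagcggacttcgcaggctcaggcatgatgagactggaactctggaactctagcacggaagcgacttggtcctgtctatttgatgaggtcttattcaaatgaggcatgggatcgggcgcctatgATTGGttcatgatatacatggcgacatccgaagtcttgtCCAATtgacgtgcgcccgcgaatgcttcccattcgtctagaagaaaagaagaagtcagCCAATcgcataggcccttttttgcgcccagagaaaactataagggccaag
The first is chr13:21811496-21811795 and the second chr13:21810117-21810416, both on the plus strand. A match is a description of the letters and was not tested as a binding site.

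The libraries held 4704491 to 26421267 counts, the median being 16477929, and libraries labelled KO were the deepest except 2. Untreated KO replicate 1 had 4704491 counts, KO NAC replicate 2 had 9431435, and the other 7 KO libraries had 18495507 to 26421267. The WT libraries had 9385094 to 18306347. The summed level of 10 macrophage markers was 7221 CPM in untreated KO replicate 1 and 10046 to 20511 CPM in the other libraries, where CPM is counts scaled to a common library total after TMM normalization. Counted over the whole gene, Hdac3 ranged from 3.38 to 74.6 CPM and did not separate the labels, with log2 fold changes from -0.34 to 0.49 for KO against WT and adjusted p from 0.645 to 0.841 in the edgeR quasi-likelihood test. The count includes exons outside the deleted part, so it does not check the labels. In bulk RNA, fewer cells of a type and less RNA per cell cannot be told apart.

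The H4 genes had the widest range over groups, and the level of each type is described first as the sum over its genes. Per library, the 46 genes together held 1231 to 5147 counts. The summed H4 level was 54.5, 48.9 and 78.3 CPM in the untreated WT libraries. It was 70.3, 84.3 and 111 CPM in WT cells given NACs, and 98.1, 101 and 99.3 CPM in those given ACs. In the KO libraries it was 158, 44.6 and 40.1 CPM without treatment, 23.7, 66.2 and 27.8 CPM after NACs, and 16.9, 23.3 and 25.1 CPM after ACs. Every KO library with ACs or NACs was thus below every WT library of the same treatment, and the untreated groups overlapped because untreated KO replicate 1 was the highest of all 18. Means were 99.6 ± 1.65 CPM (SD, n = 3) in WT and 21.8 ± 4.30 (SD, n = 3) in KO cells with ACs, a ratio of 4.57.

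**Figure D1:**
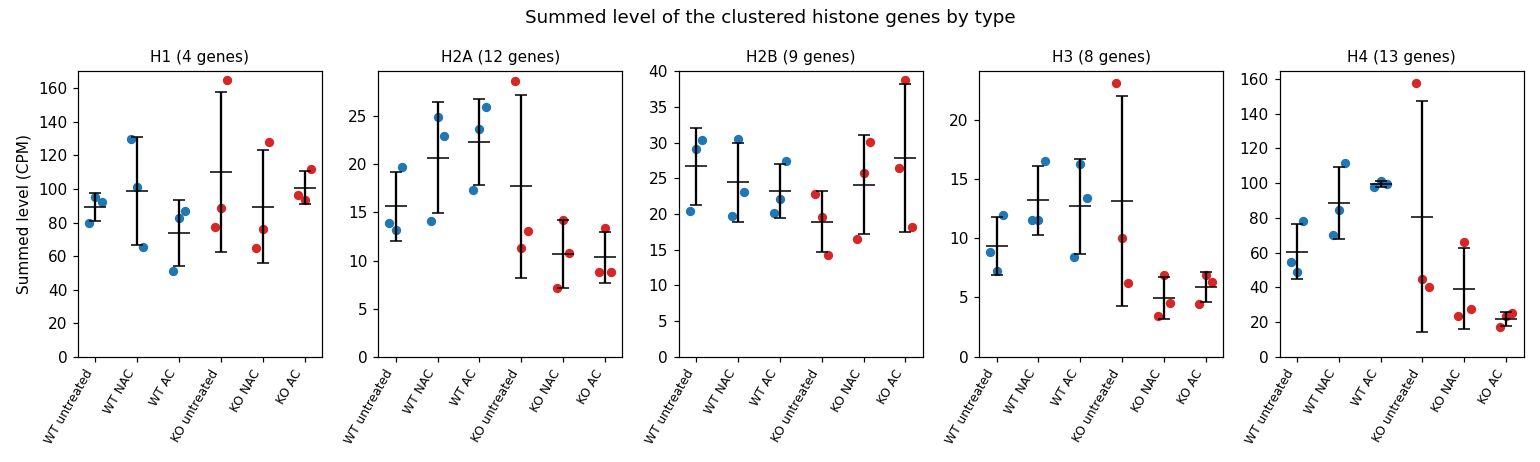
Summed level of the clustered histone genes of each type, in CPM, for each library (points) in the 6 groups, with WT in blue and KO in red. Horizontal lines are means and bars SD over 3 replicates. H4 sums with ACs lie between 98.1 and 101 CPM in WT and between 16.9 and 25.1 CPM in KO libraries, the H1 sums lie between 51.3 and 87.1 CPM in WT and between 93.7 and 112 CPM in KO libraries, and the H2B sums overlap.

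H2A and H3 sums were also lower in KO cells with ACs, and H1 and H2B sums were not. With ACs the H2A sum was 22.3 ± 4.51 CPM (SD, n = 3) in WT and 10.3 ± 2.65 (SD, n = 3) in KO cells, and the H3 sum 12.7 ± 3.98 and 5.88 ± 1.27 CPM (SD, n = 3 each), with no overlap in either. The H2B sum was 23.2 ± 3.83 and 27.8 ± 10.4 CPM (SD, n = 3 each), and the H1 sum 73.8 ± 19.6 and 101 ± 9.84 CPM (SD, n = 3 each). A single gene supplied most of the H1 sum in every library, and most of the H2B sum in many libraries but not in all. Hist1h1c supplied 80.5% to 98.4% of the H1 sum, and Hist1h2bc 29.7% to 89.3% of the H2B sum. The other 8 H2B genes together had 10.4 CPM in WT and 5.52 CPM in KO cells with ACs, and the other 3 H1 genes 6.82 and 2.54 CPM. By contrast the leading H4 gene, Hist1h4h, never exceeded 24.6% of its sum.

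On a scale divided by counted gene length, the order of the types differed between the genotypes with ACs. In WT cells the summed levels per kb were 192 ± 6.33 CPM for H4, 52.2 ± 13.0 for H1, 42.3 ± 8.92 for H2A, 33.7 ± 4.77 for H2B and 19.4 ± 7.44 for H3 (SD, n = 3). In KO cells they were 66.4 ± 6.75 for H1, 41.5 ± 7.30 for H4, 36.5 ± 13.5 for H2B, 12.2 ± 1.24 for H2A and 7.96 ± 1.07 for H3 (SD, n = 3). H4 stood above H1 in the former and below it in the latter. H4 and H2B in KO cells were within their spreads of each other, as were H1 and H2A, and H2A and H2B, in WT cells.

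The map of the 46 genes over the 18 libraries shows how widely this pattern was shared. In KO cells with ACs, 29 of 46 genes lay wholly below the 3 WT libraries, against 13.2% of the 13589 genes that met the same count limit. Hist1h1c alone lay wholly above, against 13.9% of those genes. With NACs, 19 of 46 lay wholly below, against 12.1% of those genes, and Hist2h2be alone lay above, against 13.7%. Among untreated cells 5 of 46 lay below, against 21.2%, and Hist2h3c2 alone lay above, against 17%. Over the 37 genes that reached the limit within the KO libraries too, 23 lay wholly below with ACs, 16 with NACs and 5 untreated, against 13%, 11.8% and 22.4% of the 12194 genes that did so.

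**Figure D2:**
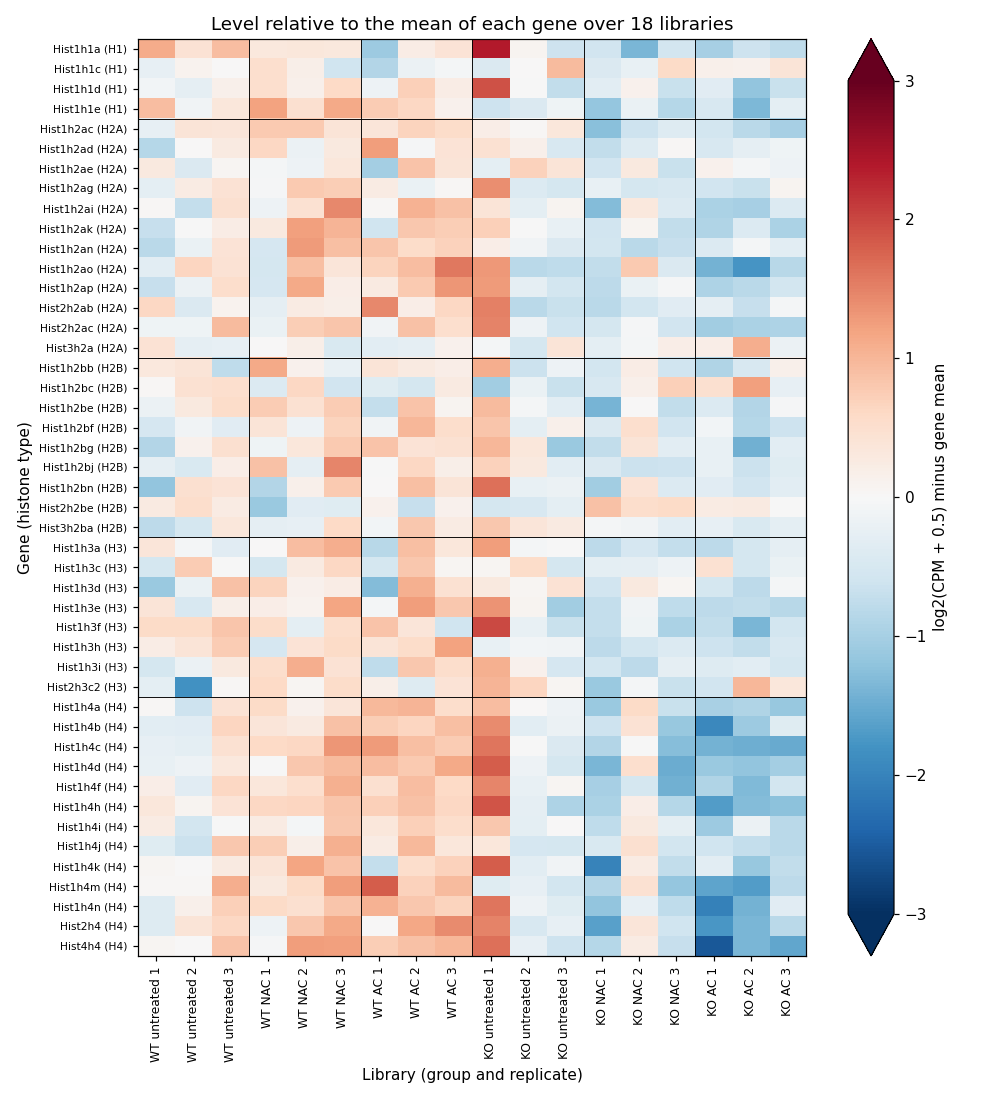
Level of each of the 46 genes in each of the 18 libraries, as log2(CPM + 0.5) minus the mean of that gene, with red above and blue below its mean. All 13 H4 genes are below their means in the 3 KO AC libraries and 12 of 13, all but Hist1h4m, are above in untreated KO replicate 1, the shallowest library, while Hist1h1c, Hist1h2bc, Hist3h2a and Hist2h2be do not follow it.

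Libraries labelled KO and WT from macrophages given ACs were compared with the edgeR quasi-likelihood test. It covered all 12304 genes that passed its filter on low counts, with Benjamini-Hochberg adjustment and a threshold of 0.05. Of the 46 genes, 35 passed the filter and 10 fell in KO cells, against 2.96% of all genes tested. None rose, against 0.788% of all genes. The 10 were 8 of 13 H4 genes and 2 of the 8 H2A genes tested, and none of the 3 H1, 7 H2B and 4 H3 genes tested. The median log2 fold change over the 35 was -1.96, against -0.01 over all genes tested. A GC and length offset, which removes trends with base composition and gene size, made it -1.19, against -0.05, and Hist1h4h stood at -1.55 and Hist1h4n at -1.74. Fitted without a filter, 11 of 46 fell, against 1.9% of 24377 genes, with a median of -1.77. Of the 46, only 37 had met the count limit within the KO libraries too, and of the 10 genes that fell above, 9 had. That limit spans all treatments. With ACs neither of the 2 H2A genes reached 10 counts in a KO library, so both passed the filter through the WT libraries. The median over the 35 includes further such genes, Hist1h3h with 7, 5 and 5 counts in the KO libraries among them. The DESeq2 Wald test called 18 of 35, against 7.02% of all genes, and these included the 10.

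Hist1h4h, the most abundant H4 gene (chr13:23531050-23531522, plus strand), had 17.1, 19.1 and 15.8 CPM in WT and 2.81, 3.83 and 4.05 CPM in KO cells with ACs. The groups were far apart, and its log2 fold change was -2.33 ± 0.45 (SE) with an adjusted p of 0.0153. Behind these levels stood 163, 299 and 243 counts in WT and 73, 91 and 60 in KO libraries. Hist1h4d (chr13:23581598-23581990, plus strand), the next called H4 gene by abundance, had 12.2, 10.9 and 14.3 CPM in WT and 2.58, 2.44 and 2.77 CPM in KO cells. Again no library overlapped, and edgeR gave a log2 fold change of -2.31 ± 0.45 (SE) at an adjusted p of 0.0165.

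Hist1h4c (chr13:23698060-23698454, minus strand) had 11.9, 9.08 and 8.17 CPM in WT and 1.42, 1.35 and 1.28 CPM in KO cells with ACs. Its log2 fold change of -2.89 ± 0.49 (SE, edgeR adjusted p = 0.0153) had the lowest unadjusted p of the 10. Hist4h4, the H4 gene outside the clusters, had 6.29, 6.97 and 7.52 CPM in WT and 0.192, 1.05 and 0.878 CPM in KO cells. No library overlapped, and its log2 fold change of -3.34 ± 0.62 (SE, edgeR adjusted p = 0.0153) was the largest decrease among the 8 H4 genes. The other 4, Hist1h4m, Hist2h4, Hist1h4n and Hist1h4a, fell with log2 fold changes from -3.07 to -2.37 and adjusted p from 0.0153 to 0.0419. All 13 H4 genes had a log2 fold change below 0, and the 5 that did not pass, Hist1h4b, Hist1h4f, Hist1h4j, Hist1h4k and Hist1h4i, had values from -2.31 to -1.26, with adjusted p from 0.0508 to 0.214.

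Both H2A genes that fell are low in abundance and nearly identical. Hist1h2ao (chr13:21810465-21810944, plus strand) had 23, 47 and 77 counts in the WT and 5, 1 and 8 counts in the KO libraries with ACs, which are 2.41, 3.00 and 4.99 CPM against 0.192, 0.0420 and 0.540 CPM. Its log2 fold change was -3.88 ± 0.79 (SE, edgeR adjusted p = 0.0194). Hist1h2ap (chr13:21833026-21833507, minus strand) had 7, 20 and 32 counts in the WT and 1, 2 and 3 in the KO libraries, with a log2 fold change of -3.75 ± 0.91 (SE, edgeR adjusted p = 0.0321). It is the only one of the 10 that met the count limit over all treatments through the WT libraries alone. The filter of the test used only the libraries with ACs, where neither Hist1h2ao nor Hist1h2ap reached 10 counts in any KO library. Both thus entered the test through the WT libraries, where they are high. The transcripts of this pair share an exact run of at least 450 bases, so the counts of one cannot be firmly separated from those of the other. The same holds for Hist1h4m and Hist1h4n, which share at least 365 bases, and 33 of the 46 genes share at least 150 bases with another gene of their type. The coding sequences of the 13 H4 genes all measure 312 bases and were 85.3% to 100% identical between pairs.

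**Figure D3:**
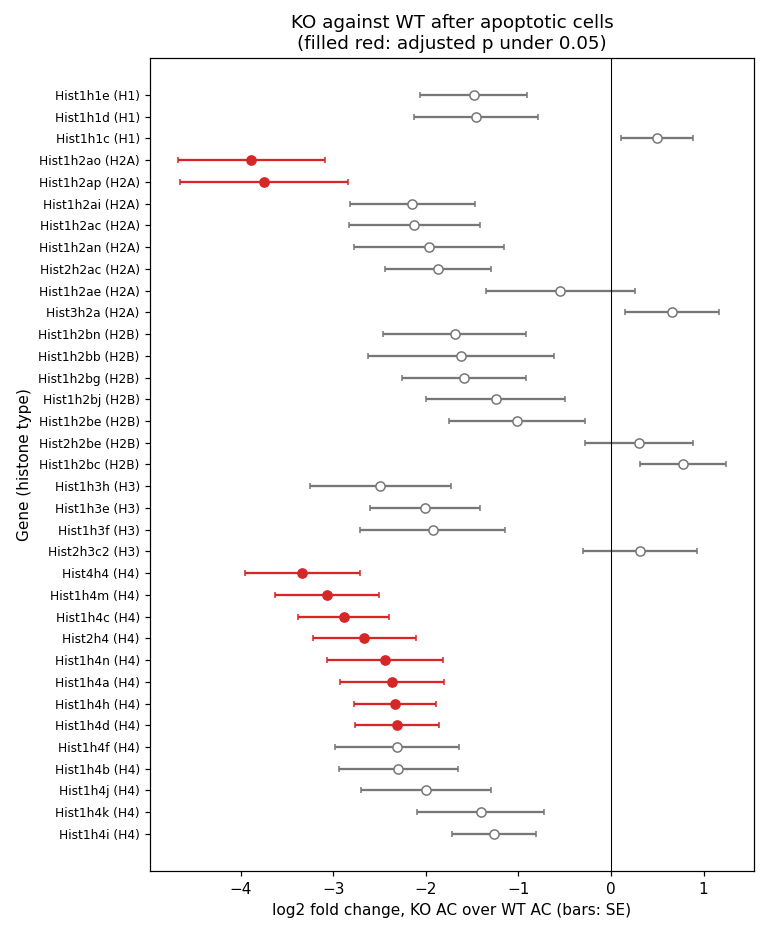
Log2 fold change of KO over WT cells with ACs for the 35 genes tested, grouped by histone type, with SE as bars. Filled red points passed an adjusted p of 0.05 in the edgeR test: 8 H4 genes and 2 H2A genes, all between -3.88 and -2.31.

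The most abundant genes of H1, H2A and H2B had log2 fold changes above 0, none of which passed the test. Hist1h1c, the H1.2 gene (chr13:23738808-23740367, plus strand), had 45.2, 74.7 and 81.1 CPM in WT and 93.5, 92.2 and 109 CPM in KO cells with ACs. The KO libraries lay above, yet the log2 fold change of 0.50 ± 0.39 (SE, edgeR adjusted p = 0.443) did not pass. Hist1h2bc had 11.1, 9.91 and 17.6 CPM against 20.2, 34.7 and 12.0 CPM, and Hist3h2a 3.25, 3.39 and 4.67 against 4.92, 9.54 and 3.65 CPM. These groups overlapped, with log2 fold changes of 0.78 ± 0.47 and 0.66 ± 0.51 (SE, edgeR adjusted p = 0.316 and 0.440). With Hist2h2be at 0.30 and Hist2h3c2 at 0.31, these were the 5 of 35 tested genes above 0, and Hist2h3c2 stood at -0.22 without KO AC replicate 2.

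Several less abundant genes of H1, H2A, H2B and H3 lay below 0 without passing the test. Hist1h1e, an H1 gene, had 4.71, 4.28 and 2.85 CPM in WT and 1.73, 0.715 and 2.03 CPM in KO cells with ACs, a separation without overlap. The log2 fold changes of Hist1h1e and Hist1h1d were -1.48 and -1.46 (edgeR adjusted p = 0.125 and 0.190), and with the GC and length offset Hist1h1d stood at -0.17. Hist1h3e, the leading H3 gene, had 1.99, 5.63 and 4.02 CPM against 1.00, 1.05 and 0.945 CPM. No library overlapped, and the log2 fold change of -2.01 ± 0.60 (SE, edgeR adjusted p = 0.0620) missed the threshold. Hist2h2ac, an H2A gene, and Hist1h2bg, an H2B gene, stood at -1.87 and -1.59, and Hist1h3f at -1.92 (edgeR adjusted p = 0.0697, 0.151 and 0.139), and with the GC and length offset Hist2h2ac stood at -0.81.

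**Figure D4:**
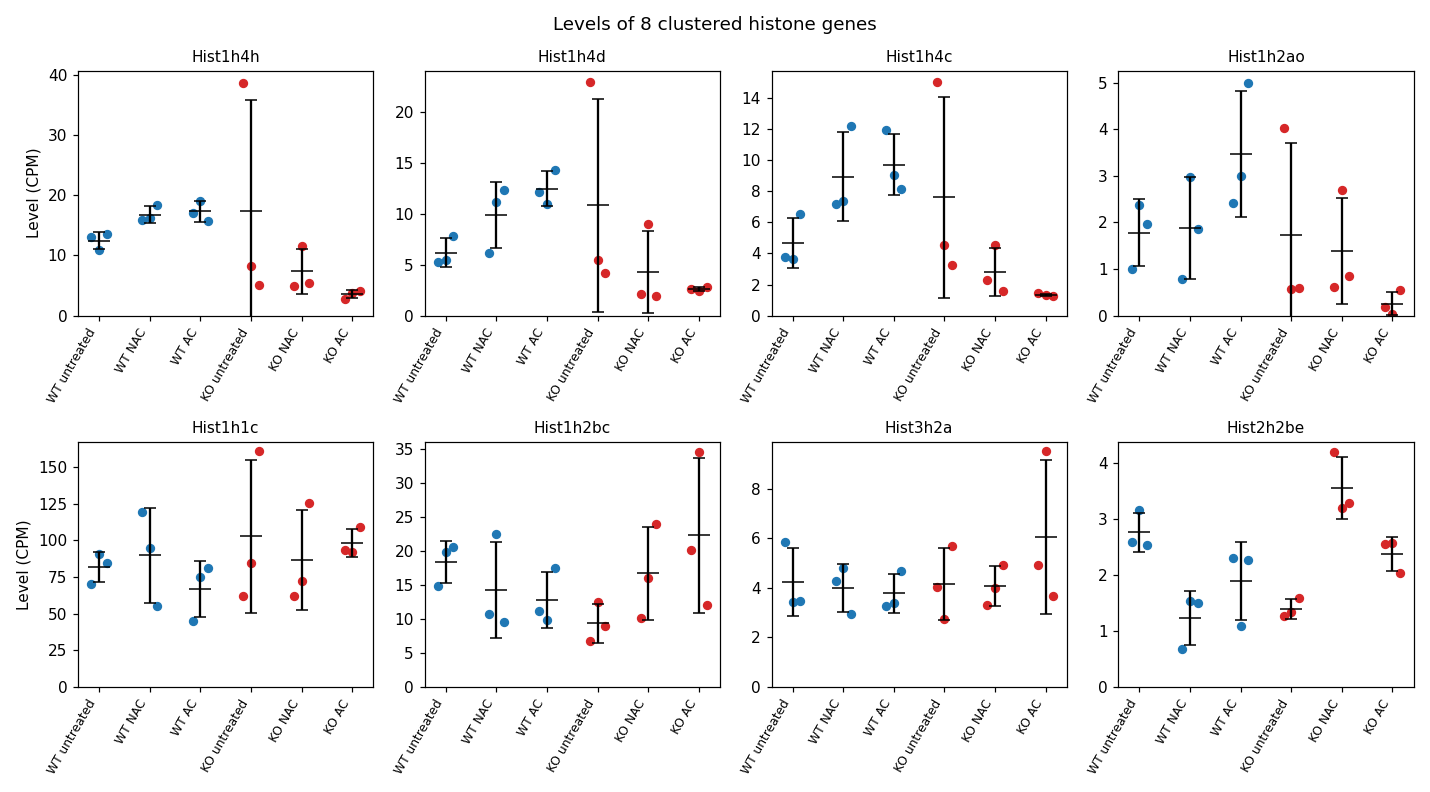
Level in CPM of 8 genes in each library (points) of the 6 groups, with WT in blue and KO in red, means as horizontal lines and SD over 3 replicates as bars, cut off at 0. Hist1h4h, Hist1h4d, Hist1h4c and Hist1h2ao, in the upper row, are lower in KO than in WT cells with ACs, with no overlap. Hist1h1c, Hist1h2bc, Hist3h2a and Hist2h2be, in the lower row, are not.

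Grouped by the features of their annotated 3′ ends, the 46 genes did not split cleanly. In KO against WT cells with ACs, fitted without a filter, the median log2 fold change was -1.79 over the 24 genes with a stem-loop and no poly(A) signal, of which 23 lay below 0. It was -1.40 over the 12 genes with a poly(A) signal, which ranged from -3.23 to 0.78. Both groups hold genes that met the count limit through the WT libraries alone, such as Hist1h2ap among the 24 and Hist3h2ba among the 12. These medians are therefore a description only. Of the 10 genes that fell, Hist1h4a, Hist1h4h, Hist2h4 and Hist4h4 have a poly(A) signal and the other 6 do not. Of the 5 genes above 0, Hist1h1c, Hist3h2a and Hist2h2be have one and Hist1h2bc and Hist2h3c2 do not. With NACs, fitted likewise, the median was -1.265 over the 24 genes, all of them below 0. Over the 12 genes it was -0.62, with 9 below 0 and a range from -1.84 to 1.61.

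One KO library decided the number of calls with ACs. Without KO AC replicate 1 none of the 46 genes passed, and neither did any other gene of the table, while the log2 fold changes of the 10 genes over all 6 fits that each left out a library ranged from -4.81 to -1.93. In the other 5 fits 9 to 13 genes passed. Over all the settings run for this comparison, 0% to 13.3% of all genes were called. Hist1h2ap also lost its call without WT AC replicate 3 or KO AC replicate 3 (edgeR adjusted p = 0.134 and 0.0536), and Hist1h4a without WT AC replicate 2 or KO AC replicate 3 (edgeR adjusted p = 0.0584 and 0.0560).

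Without any treatment, no gene of the family passed the test between the genotypes. Of 40 genes tested, 0 passed in the edgeR test, against 11.6% of all 12101 genes, 1 had an unadjusted p under 0.05, against 37.2% of all genes, and the DESeq2 Wald test called 0 as well, against 27.4% of all genes. Hist1h4h had 13.0, 10.8 and 13.6 CPM in WT and 38.7, 8.27 and 5.07 CPM in KO cells, so its 3 KO libraries lay on both sides of the WT libraries. The median log2 fold change of the 40 genes was 0.21, against 0.06 over all genes, and -0.23 against -0.42 when scaled by library totals alone, a scaling that lowered both medians. With the GC and length offset it was -0.30, against -0.06 over all genes. Without untreated KO replicate 1 the median was -0.57, against -0.20 over all genes, and 4 of 41 genes fell, namely Hist1h2ao, Hist1h4h, Hist1h3f and Hist1h1a, against 27% of all genes.

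With NACs, most genes of the family had a level below WT in KO cells, and none passed the threshold. Of 33 genes tested, 30 had a log2 fold change below 0, with a median of -1.24 against -0.00 over all genes. With the GC and length offset the median was -0.58, against 0.03, and 9 genes lower and 1 higher had an unadjusted p under 0.05, against 16.2% of all genes. In the edgeR test without that offset 0 of 33 passed, against 0.864% of 11923 genes. At an unadjusted p under 0.05 there were 20, 19 lower and 1 higher, against 24.2% of all genes, and the DESeq2 Wald test called 5 lower, against 1.78%. Those 5 were Hist1h4n, Hist1h4h, Hist1h4f, Hist1h1e and Hist1h4c. Hist1h4h had 15.9, 16.2 and 18.3 CPM in WT and 4.98, 11.6 and 5.39 CPM in KO cells, a separation without overlap in which KO replicate 2, the shallow library, was nearest to WT. Without WT NAC replicate 2, 7 of 40 genes passed, 6 lower and Hist2h2be higher, against 24.6% of all genes.

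Within each genotype no gene of the family passed the test for either kind of K562 cell. In WT cells 0 of 38 genes passed with NACs against untreated, compared with 8.52% of all genes, 0 of 40 with ACs against untreated and 0 of 40 with ACs against NACs, where 0% of all genes passed in both. The genes with an unadjusted p under 0.05 numbered 3, 2 and 0, against 33.2%, 12.7% and 4.16% of all genes, and the DESeq2 Wald test called 0 in each, against 14.1%, 0.041% and 0% of all genes. The H4 sum had means of 60.6 ± 15.6, 88.7 ± 20.9 and 99.6 ± 1.65 CPM (SD, n = 3) in untreated, NAC and AC WT cells, and all 13 H4 genes had a log2 fold change above 0 with ACs against untreated, with a median of 0.62.

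In KO cells 0 of 34 genes passed with NACs against untreated, compared with 6.54% of all genes, 0 of 34 with ACs against untreated, compared with 0%, and 0 of 30 with ACs against NACs, compared with 7.38%. The genes with an unadjusted p under 0.05 numbered 6, 14 and 4, against 30.4%, 14.5% and 25.3% of all genes, and the DESeq2 Wald test called 2, 0 and 2, against 19%, 0.124% and 11.7% of all genes. With ACs against untreated, all 13 H4 genes had a log2 fold change below 0, with a median of -1.92. Over the 34 genes of the family the median was -1.42, against 0.10 over all genes. Without untreated KO replicate 1 it was -0.70, against 0.20, and with the GC and length offset -0.34, against 0.10. These comparisons share their libraries with the comparisons between genotypes.

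Whether the response differed between genotypes was tested as an interaction in the edgeR fit. For ACs against untreated, 0 of 45 genes passed, against 0% of all 13225 genes, with 23 at an unadjusted p under 0.05, against 24.1%, and 10 called by the DESeq2 Wald test, against 9.26%. For ACs against NACs, 0 of 42 passed, against 0.0765% of 13076 genes, with 4 at an unadjusted p under 0.05, against 20%, and 1 by the Wald test, against 5.83%. For NACs against untreated, 3 of 43 passed, which is below the 34.8% of all 13005 genes that did so, and the Wald test called 12, against 43.4%.

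Sequencing depth and some other RNAs without a poly(A) tail were read beside the H4 level. The shallowest KO libraries, untreated replicate 1 and NAC replicate 2, had the highest H4 sums among the KO libraries, at 158 and 66.2 CPM, and the other 7 KO libraries had 16.9 to 44.6 CPM. With ACs the KO libraries had 18495507 to 22664522 counts and the WT libraries 9385094 to 14929827, so depth and genotype cannot be told apart in that comparison. Among WT libraries alone the deepest, NAC replicate 3 with 18306347 counts, had the highest H4 sum, 111 CPM. That library and KO AC replicate 3, with 18495507 counts, are close in depth and had 111 and 25.1 CPM. WT AC replicate 1, with 9385094 counts, and KO NAC replicate 2, with 9431435, are also close and had 98.1 and 66.2 CPM. Both pairs differ in treatment as well as genotype, and the part of depth was not tested.

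**Figure D5:**
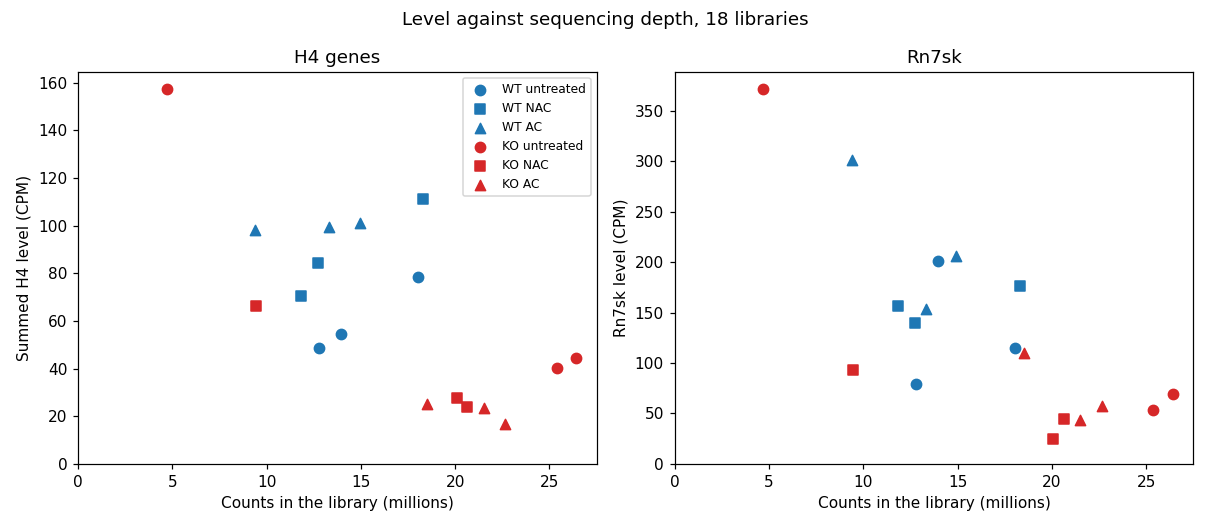
Summed H4 level (left) and level of Rn7sk (right), in CPM, against the total counts of each of the 18 libraries on a linear axis. WT libraries are blue and KO libraries red, with a shape for each treatment. The library with 4704491 counts has the highest value in both panels, and the 7 deep KO libraries have H4 sums of 16.9 to 44.6 CPM.

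Rn7sk, the 7SK RNA that holds the elongation factor P-TEFb, had 301, 206 and 154 CPM in WT and 56.9, 43.8 and 110 CPM in KO cells with ACs. It fell by 1.72 on the log2 scale (SE 0.44, edgeR adjusted p = 0.0413). Of 16 RNAs without a poly(A) tail, 6 passed the filter and 2 fell with ACs, against 2.96% of all genes, namely Rn7sk and Scarna2, a guide RNA of Cajal bodies. The median of the 6 was -1.20, with Rpph1 at -1.80, Vaultrc5 at -0.67, Rmrp at 0.40 and Malat1 at 0.47. With NACs all 6 lay below 0 with a median of -1.62, and 2 fell, against 0.864% of all genes called in either direction, namely Rmrp and Rpph1, the RNA parts of the enzymes RNase MRP and RNase P. The summed level of the 16 was 569 to 1484 CPM in WT and 239.6 to 2339 CPM in KO cells with ACs, and Rnu11 and Snora73b had no count. In untreated KO replicate 1, Rn7sk was at 371 CPM, against 69.0 and 53.2 CPM in the other 2 untreated KO libraries. For each 100 counts of Rn7sk the H4 genes had 32.6, 49.2 and 64.6 counts in WT and 29.7, 53.1 and 22.9 in KO cells with ACs, values that overlapped. With NACs they had 44.9, 60.6 and 63.2 counts in WT and 53.9, 71.4 and 113 in KO cells, values that also overlapped. For each 100 counts of Hist1h1c they had 217, 136 and 123 counts in WT and 18.1, 25.3 and 23.1 in KO cells with ACs, and 58.9, 89.1 and 202 in WT and 38.2, 91.7 and 22.2 in KO cells with NACs. The groups were apart with ACs and overlapped with NACs. The part of depth, or of how each library captured RNA without a poly(A) tail, in the H4 result was not tested.

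Genes for replication and for histones outside the clusters passed the test in neither direction with ACs. At the shares of all genes that fell or rose with ACs, given above, lists of this size would hold few called genes or none. Of 20 genes of S phase and proliferation, all were tested with ACs and 0 passed in either direction in KO against WT cells. Their median log2 fold change was 0.31, against -0.01 over all genes, and their summed level was 535 ± 20.5 CPM in WT and 580 ± 132 CPM in KO cells (SD, n = 3 each). With NACs 0 of 20 passed, which is near the 0.864% of all genes that did so. Their median was -0.76 against -0.00 over all genes, with 15 of 20 below 0, beside the family's median of -1.24. The part of these genes in the NAC values was not tested. Of 11 genes for transcription and 3′ processing of histone mRNAs, 10 were tested and 0 passed, with a median of -0.44 and 8 of 10 below 0. Slbp stood at -0.35 ± 0.46 (SE, edgeR adjusted p = 0.667) and Casp8ap2 at -1.76 ± 0.63 (SE, edgeR adjusted p = 0.102). Of 11 replication-independent histone genes, 11 were tested and 0 passed, with a median of -0.25 and a summed level of 1307 ± 261 CPM in WT and 1097 ± 163 CPM in KO cells (SD, n = 3 each). Of 8 histone chaperones, 0 passed, and these counts of 0 are likewise near the share of all genes called with ACs. In untreated cells, where 11.6% of all genes passed, H3f3a and Eri1 fell and Chaf1a and Cdt1 rose, a single gene of each list.

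Markers of other cell types were also read beside the family with ACs. Of 8 neutrophil genes 7 were tested and Elane fell, with a summed level of 372 to 953 CPM in WT and 438 to 760 CPM in KO cells. The B cell, T cell, fibroblast and erythroid (K562-like) lists had 0 called genes, with 2 of 5, 1 of 5, 6 of 6 and 2 of 9 tested. Their sums were 2.41 to 5.82 against 3.40 to 6.42 CPM, 3.88 to 34.9 against 17.5 to 63.8 CPM, 7.65 to 195 against 79.2 to 230 CPM, and 1.57 to 45.4 against 0.757 to 16.5 CPM, WT against KO. Of the macrophage list 0 of 10 passed. Its summed level was 10046 to 11845 CPM in WT and 15417 to 17841 CPM in KO cells, higher in KO without overlap. For lists this short a count of 0 is near the share of all genes called with ACs, given above, and Elane is a single gene. The part of these cells in the H4 result was not tested.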

How the data were processed

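RNA of 18 libraries was sequenced as paired reads from NEBNext Ultra II RNA libraries, and neither poly(A) selection nor rRNA depletion nor the strand setting is given in the sources used here. The deposited values are whole counts per gene for each library, which the authors did not normalize. The submitters' processing notes name Trimmomatic 0.36, STAR 2.5.2b, featureCounts of Subread 1.5.2 and GRCm38. Reads that fit several near-identical histone genes may have been dropped or split at that step. The study states that alignment to the mouse genome alone kept signal from the human K562 cells small. It also grants that KO and control macrophages may differ in engulfment, which could have skewed the sequencing. Whether K562 reads entered the histone counts was not tested.

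Symbols were taken from GENCODE M21, which matched 49056 of 49315 identifiers, and coordinates from the files. Of 65 histone candidates, 3 pseudogenes having been dropped before, 45 have the same start and end in M21. The members, the gene lists and the tests were chosen with earlier results of these data known. The genes named by rule are the 3 most abundant of each type and every gene called in a comparison between groups, at most 12, with Hdac3 and the genes at the edge of the rule. Genes given beside them were chosen after their values were seen.

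Only the libraries of the groups compared entered a fit, made with edgeR 4.0.16 under R 4.3.3 (filterByExpr with a minimum count of 10 and minimum total of 15, TMM, robust quasi-likelihood fit, Benjamini-Hochberg adjustment, threshold 0.05). The scripts were tested on simulated data. Levels are CPM with TMM factors over all 18 libraries, and sums over a type have no test. Alternatives were DESeq2 1.42.0 size factors and Wald test, library totals alone, no filter, at least 10 counts in every library, 1 fit for all libraries, a GC and length offset (mgcv 1.9.3), the replicate number as a block, and each library left out. With 4704491 to 26421267 counts a library, the members had 0 to 3246 counts each. Promoters are RefSeq windows. Proteins were not used here.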

Additional observations from a re-analysis of the deposited data

Results flagged for a closer look

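The response to NACs differed between WT and KO cells for 3 genes of the family by the interaction term of the edgeR quasi-likelihood test, as it did for 34.8% of the 13005 genes tested. Hist2h2be, an H2B gene (chr3:96221119-96223738), had means of 2.75 CPM untreated and 1.23 CPM with NACs in WT cells, and 1.39 and 3.55 CPM in KO cells. Its levels moved in opposite directions, with an interaction of 2.85 ± 0.74 (log2, SE, adjusted p = 0.00670). Hist1h4c had 4.66 and 8.93 CPM in WT and 7.63 and 2.82 CPM in KO cells, an interaction of -2.04 ± 0.75 (SE, adjusted p = 0.0391). Hist1h4f had 1.82 and 2.70 CPM in WT and 2.61 and 0.547 CPM in KO cells, an interaction of -2.48 ± 0.93 (SE, adjusted p = 0.0429). In both H4 genes the untreated KO mean contains replicate 1, at 15.1 CPM for Hist1h4c and 5.03 CPM for Hist1h4f, and over the 12 fits that left out a library the interaction ranged from -2.73 to -1.40 and from -3.15 to -1.96, and each missed the threshold in 6 of the 12. That of Hist2h2be ranged from 2.30 to 3.04 and passed in all 12. Under the other alternatives Hist2h2be ranged from 1.64 to 3.40 and missed the threshold in 2 of 8, both with the GC and length offset (adjusted p = 0.0866 and 0.112). Hist1h4f stood at -0.52 with that offset (adjusted p = 0.685) and missed the threshold in 4 of 8, and Hist1h4c missed it in 3 of 9.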

How the results depend on the processing

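For KO against WT with ACs the count of 10 genes that fell became 18 with the DESeq2 Wald test and 0 to 13 when each library was left out, and 7 to 13 under the other alternatives. For KO against WT with NACs the count of 0 became 2 with DESeq2 size factors, 5 with the Wald test, 4 without a filter, 1 with at least 10 counts in every library, 3 with the replicate block and 0 to 7 with a library left out. For KO against WT untreated it became 1 with library totals alone and 0 to 4 with a library left out. With a library left out it was 0 to 1 for NACs against untreated in WT, 0 to 1 for the same in KO, and 0 to 1 for ACs against NACs in KO. For NACs against untreated in KO it was 1 with library totals alone, 2 with the Wald test, 1 without a filter and 1 with all 18 libraries in one fit. For ACs against untreated in WT it was 1 with the GC and length offset and replicate block together. For ACs against NACs in KO it was 2 with the Wald test and 1 with the replicate block.

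The 3 genes of the interaction with NACs against untreated became 7 with DESeq2 size factors, 12 with the Wald test, 6 without a filter, 1 with at least 10 counts in every library, 6 with all 18 libraries in one fit, 1 with the GC and length offset and replicate block together, and 1 to 13 with a library left out. The interaction with ACs against untreated gave 10 with the Wald test, 3 without a filter and 0 to 9 with a library left out, and that with ACs against NACs gave 1 with the Wald test and 0 to 1 with a library left out. With library totals alone the untreated WT sums became 108 CPM for H1 and 32.3 CPM for H2B, and the H4 sum with ACs in WT became 107 CPM. The cause was not tested. Over these settings the share of all genes called ran from 0% to 46.3% untreated, 0% to 24.6% with NACs and 0% to 13.3% with ACs for KO against WT, and from 9.95% to 46.2% for the interaction with NACs against untreated. It ran from 0% to 34.2% in WT and 0% to 35.5% in KO for NACs against untreated, 0% to 0.975% for ACs against untreated in WT and 0% to 23.9% for ACs against NACs in KO. For the interactions with ACs against untreated and against NACs it ran from 0% to 9.26% and 0% to 6.14%. Library totals alone moved the median log2 fold change of all genes from -0.00 to 0.31 for KO against WT with NACs, where that of the family went from -1.24 to -0.95. With the GC and length offset and replicate block together the family's median was -1.39 with ACs, where Hist1h4n, Hist1h4a and Hist1h2ap lost their calls (adjusted p = 0.0802, 0.0610 and 0.103), and -0.56 with NACs. With the offset alone Hist1h2ap lost its call (adjusted p = 0.0501). Same-numbered replicates deviated together by correlations of -0.33 to 0.46, not above 0.1 in every pair of any comparison. The main fits therefore took no pairing, and the replicate block is given as an alternative. Whether one mouse supplied cells for several treatments is not given in the sources used here. Genes with under 10 counts a library are read with wide counting error.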
